A study of Mus musculus with 4 samples.

Results

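Complexes III and IV of the respiratory chain and ATP synthase were represented by 42 of the 19938 genes measured. Members were all genes whose symbol in the platform annotation starts with *Uqcr*, *Cox4* to *Cox8* or *Atp5* and that had a probe set naming no other gene. By complex, 8 belonged to complex III, 17 to complex IV and 17 to ATP synthase. The rule did not use the measured values, but the set was proposed after these arrays had been analysed. *Cox7c* was left out because its 3 probe sets also name *Gm12338*, and the subunits encoded by mitochondrial DNA were not analysed here.

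RNA came from the subcutaneous adipose tissue of male C57Bl6 mice, 16 weeks old and fed their diet for 8 weeks. All mice carried NAPE PLD lox/lox alleles. WT-CT and WT-HFD mice had no Cre, and cKO-CT and cKO-HFD mice were their littermates with AP2 Cre, a recombinase driven by the *Fabp4* promoter of adipocytes. The CT groups ate the control diet AIN93M and the HFD groups the high fat diet D12492. Tissue was taken whole, so stromal and vascular cells, which keep the gene, contributed RNA. RNA was pooled within each group, from 4 to 5 mice according to the labels and 5 according to the methods, and hybridized to 1 array. With 1 array per group there is no replicate spread and no test, and each difference is between single pools. The targeted gene, *Napepld*, which makes N-acylethanolamines, had log2 levels of 8.31 in WT and 7.78 in cKO on CT, and 8.01 in WT and 7.94 in cKO on HFD. The place of its probe set relative to the floxed part is not known here, so these levels do not check the labels. The white adipocyte markers were at high levels everywhere, with medians over 9 genes between 12.17 and 12.54.

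Complex III, ubiquinol-cytochrome c reductase, passes electrons from ubiquinol to cytochrome c, and complex IV, cytochrome c oxidase, passes them on to oxygen. Both pump protons across the inner mitochondrial membrane, and ATP synthase lets the protons return and makes ATP. In brown and beige adipocytes the uncoupling protein UCP1 lets protons return without making ATP, and these cells are rich in respiratory chain complexes. Some subunits of complex IV exist in alternative forms: *Cox7a1* and *Cox8b* are used in heart, skeletal muscle and brown fat, *Cox6a2* in heart and skeletal muscle, while *Cox7a2*, *Cox8a* and *Cox6a1* are their counterparts in most other tissues.

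The promoters of *Cox7a1* and *Cox8b* held fewer CG dinucleotides than those of *Cox7a2* and *Cox8a*. RefSeq promoter entries (GRCm38.p6) were matched for 32 members, *Cox6a2* not among them. The 250 bases upstream of the start of *Cox7a1* (chr7:30183921-30184170, plus strand) and *Cox8b* (chr7:140900447-140900696, minus strand) are shown beside those of *Cox7a2* (chr9:79759854-79760103, minus strand) and *Cox8a* (chr19:7217617-7217866, minus strand), because the results below set these pairs against each other. Sequences run 5′ to 3′ towards the start site, and capitals mark the dinucleotide CG.
Cox7a1: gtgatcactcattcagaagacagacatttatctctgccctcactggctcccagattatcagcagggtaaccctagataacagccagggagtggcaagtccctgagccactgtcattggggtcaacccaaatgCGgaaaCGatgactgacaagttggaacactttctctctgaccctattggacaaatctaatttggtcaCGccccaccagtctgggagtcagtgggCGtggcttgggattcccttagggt
Cox7a2: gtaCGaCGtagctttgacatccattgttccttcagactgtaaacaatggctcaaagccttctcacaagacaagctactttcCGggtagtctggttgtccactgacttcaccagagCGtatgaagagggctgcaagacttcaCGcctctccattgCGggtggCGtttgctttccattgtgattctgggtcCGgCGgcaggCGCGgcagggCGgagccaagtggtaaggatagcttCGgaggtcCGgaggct
Cox8b: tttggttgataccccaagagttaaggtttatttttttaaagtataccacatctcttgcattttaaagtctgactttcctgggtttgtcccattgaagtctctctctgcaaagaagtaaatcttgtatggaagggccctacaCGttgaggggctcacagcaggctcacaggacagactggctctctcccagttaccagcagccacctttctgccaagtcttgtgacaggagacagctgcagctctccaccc
Cox8a: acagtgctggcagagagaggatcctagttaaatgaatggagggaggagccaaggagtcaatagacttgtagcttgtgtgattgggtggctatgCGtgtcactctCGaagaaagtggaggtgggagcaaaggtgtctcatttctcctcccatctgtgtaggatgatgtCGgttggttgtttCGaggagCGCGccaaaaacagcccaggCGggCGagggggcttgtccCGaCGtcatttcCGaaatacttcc

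The CG dinucleotide, the site of DNA methylation, occurred 4 times upstream of *Cox7a1* and 1 time upstream of *Cox8b*. It occurred 14 times upstream of *Cox7a2* and 11 times upstream of *Cox8a*. Over the 28 matched subunits in wide use, *Cox7a2l* included, the median was 14 with a range of 5 to 32, and over all 27025 genes of the table it was 6. For a gene with several windows, CG was counted in 1 window only, and another window of *Atp5j* held 35. *Cox7a1* and *Cox8b* were thus below every matched subunit in wide use. Motifs were searched on both strands of the same windows, counting a gene once if any of its windows held the motif. GCGCATGC, a core of the nuclear respiratory factor 1 motif, was found for 4 of 32 members (*Atp5g2*, *Atp5k*, *Atp5l* and *Cox6a1*) and for 2.56% of all genes. CCGGAAG, a core bound by ETS factors such as GABP, was found for 8 members (25%) against 7.83% of all genes, and CCAAT for 18 (56.2%) against 37.5%. AAGGTCA, a core bound by oestrogen-related receptors, was found for 2 members, *Atp5g3* and *Atp5l*, and for 4.70% of all genes. CAGCTG, an E-box read by muscle regulators among others, was found for *Cox8b* and *Atp5b* (14.7% of all genes). The MEF2 motif was found for none of the 32 and for 3.42% of all genes. GGGCGG, the GC box, was found for 11 members and 35.4% of all genes, and TATAAA for 3 and 14.3%. The last of these can share bases with the MEF2 motif. GCGCATGC, CCGGAAG and GGGCGG contain CG themselves. The windows of the members held more CG than those of all genes (median 13.5 against 6), and the shares were not adjusted for this. A match describes letters in a window only, and binding was not measured.

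Most of the 42 genes were well measured. Olfactory receptor (*Olfr*) genes, which adipose tissue is not known to use, served as a guide to background, and the 95th percentile of 1027 of them lay between 5.28 and 5.50 on the log2 scale. Members above that value on all arrays numbered 39. The exceptions were *Cox7b2* and *Cox8c*, testis isoforms that stayed below it on every array, and *Cox6b2*, another testis isoform, which was above it on 2 arrays. Averaged over the arrays, a log2 level of 7 or more was reached by 37 members and by 5362 genes in all, called well expressed below. The plot of levels by array shows that WT-CT is the highest array for most members: this held for 34 of 42 members against 27.4% of all genes, and for 32 of the 37 well expressed members against 22.6% of the 5362 genes. Levels of different genes come from different probe sets and are not compared with each other.

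**Figure D1:**
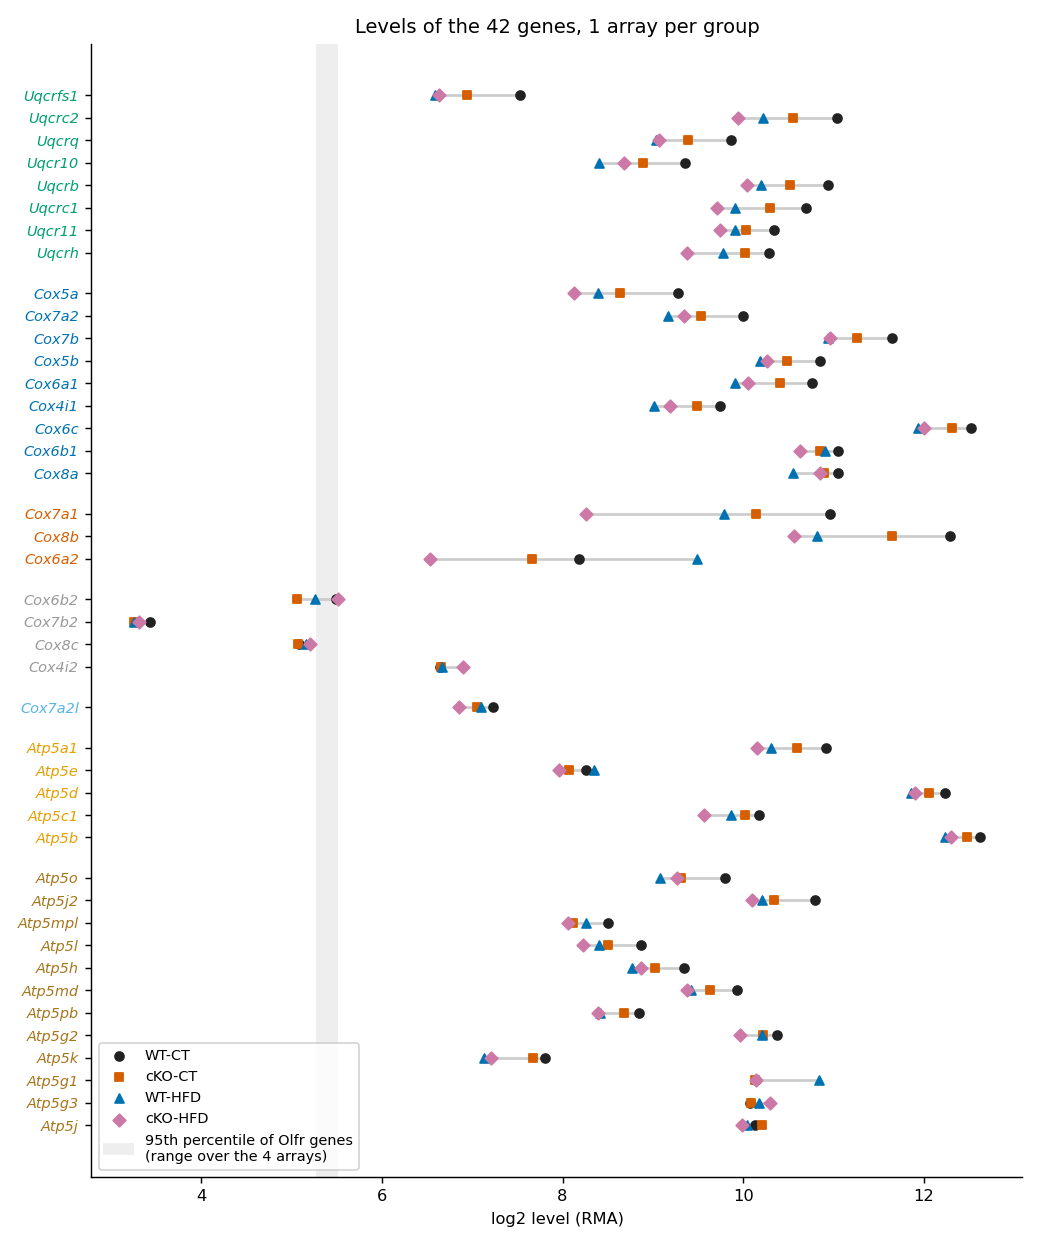
Log2 level (RMA, horizontal axis) of each of the 42 genes on the 4 arrays, 1 point per array, with genes coloured by role: complex III (green), complex IV ubiquitous (blue), muscle and brown fat isoforms (orange), other restricted isoforms (grey), *Cox7a2l* (light blue), ATP synthase F1 (yellow) and membrane part and stalk (brown). The grey band spans the 95th percentiles of the *Olfr* genes, 5.28 to 5.50. WT-CT is the highest array for 34 genes.

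On the control diet, 39 of the 42 genes were lower on cKO-CT than on WT-CT, mostly by less than 1.5-fold. A gene was called at 1.5-fold, a log2 ratio of 0.58. The median log2 ratio of the members was -0.31, against -0.01 over all genes and 0.11 over the 5362 well expressed genes. Below 0 were 39 members, against 50.7% of all genes. Lower by 1.5-fold were *Cox7a1* (-0.82), *Cox8b* (-0.65) and *Cox5a* (-0.63), so 3 members, and none was higher. For all genes these shares were 1.52% lower and 1.64% higher, and 0.783% of the well expressed genes were lower. The call rests on a small margin, since *Uqcrfs1* at -0.58 fell just short. After cyclic loess scaling between arrays 5 members were lower, *Uqcrfs1* and *Cox6a2* being added, and the median was -0.39.

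HFD in WT mice gave larger differences. On WT-HFD, 19 members were lower and 2 higher than on WT-CT, where 2.67% of all genes were lower, 3.16% higher, and 5.02% of the well expressed genes lower. The median log2 ratio was -0.51 and 36 of 42 members were below 0, against 50.6% of all genes. The 2 higher members were *Cox6a2* (1.31), the muscle form of subunit 6a, and *Atp5g1* (0.70), which encodes a c subunit of the ATP synthase ring. *Cox6c*, at -0.59, was just past 1.5-fold and *Atp5h*, at -0.57, just short of it.

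On cKO-HFD, 21 members were lower than on WT-CT and none higher, and the median log2 ratio was -0.57. Of all genes 3.41% were lower and 3.36% higher, and of the well expressed genes 6.62% were lower. Below 0 were 38 members against 47.7% of all genes. *Cox5b*, at -0.59, was just past 1.5-fold and *Atp5md*, at -0.55, just short of it. These comparisons all use the WT-CT array, so its own deviations enter each of them.

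On HFD the 2 genotypes differed little for most members. The median log2 ratio of cKO-HFD over WT-HFD was -0.03, with 22 of 42 members below 0 against 44.4% of all genes. Lower by 1.5-fold were *Cox6a2* (-2.96), *Cox7a1* (-1.53) and *Atp5g1* (-0.71), and none was higher. Among all genes 2.11% were lower and 1.04% higher, and 3.17% of the well expressed genes were lower. The member nearest to 1.5-fold without passing was *Uqcrh* at -0.40.

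The diet comparison in cKO mice, added after the data were seen, does not use the WT-CT array. On cKO-HFD, 6 members were lower than on cKO-CT (*Cox7a1*, *Cox6a2*, *Cox8b*, *Uqcrh*, *Uqcrc2* and *Uqcrc1*) and none was higher, with 2.17% of all genes lower, 1.82% higher, and 4.07% of the well expressed genes lower. The median log2 ratio was -0.26 and 36 members were below 0, against 46.9% of all genes. Of the well expressed genes 65.2% were below 0, with a median of -0.08, and 35 of the 37 well expressed members were. After cyclic loess 4 members were lower, as *Uqcrc1* and *Uqcrc2* no longer passed 1.5-fold. *Uqcrc1*, at -0.59, was just past 1.5-fold and *Cox5a*, at -0.51, just short of it.

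**Figure D2:**
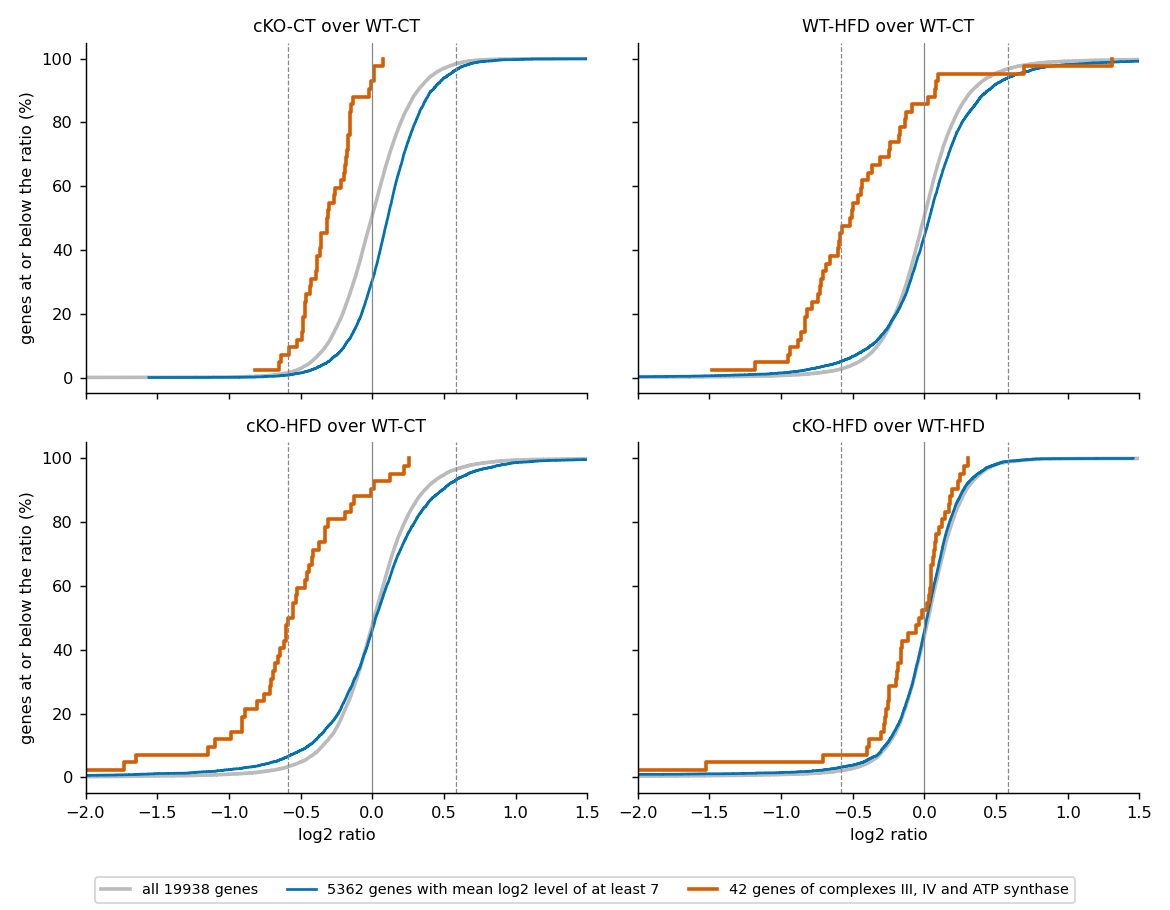
Cumulative distribution of log2 ratios (horizontal axis, drawn from -2 to 1.5) for the 42 genes (orange), the 5362 well expressed genes (blue, average log2 level of 7 or more) and all 19938 genes (grey) in 4 comparisons; the vertical axis gives the percent of genes at or below a ratio and dashed lines mark 1.5-fold. The orange curve lies left of the others in the comparisons with WT-CT, with medians of -0.31, -0.51 and -0.57, and close to them for cKO-HFD over WT-HFD, with a median of -0.03.

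The complex III genes kept close together. All 8 genes were below WT-CT on each of the other arrays, with median log2 ratios of -0.45 in the cKO-CT pool, -0.80 in the WT-HFD pool and -0.90 in the cKO-HFD pool. By 1.5-fold, 0, 6 and 8 of them were lower. *Uqcrc2*, a core protein of the matrix side, had log2 levels of 11.04 in WT and 10.55 in cKO on CT, and 10.22 in WT and 9.94 in cKO on HFD. Its partner core protein *Uqcrc1* was at 10.69, 10.30, 9.91 and 9.71 in the same order of arrays, which is kept wherever 4 levels are listed. *Uqcrfs1*, the Rieske iron-sulfur protein that hands electrons to cytochrome c1, was at 7.52, 6.95, 6.59 and 6.64. All 3 were highest on WT-CT and next on cKO-CT, and the HFD arrays were below both.

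Among the small subunits of complex III, *Uqcrq* was at 9.87, 9.39, 9.04 and 9.07 in WT and cKO on CT and then in WT and cKO on HFD. *Uqcrb* was at 10.94, 10.52, 10.20 and 10.04. *Uqcr10* was at 9.36, 8.89, 8.41 and 8.68, and was the complex III gene with the lowest ratio on WT-HFD (-0.95). *Uqcr10* and *Uqcrfs1*, with *Uqcrq*, were slightly higher on cKO-HFD than on WT-HFD, while the other 5 were lower. *Uqcrh*, the hinge protein that binds cytochrome c1, was at 10.29, 10.02, 9.78 and 9.38, and *Uqcr11* at 10.35, 10.03, 9.91 and 9.74. These 2 passed 1.5-fold only on cKO-HFD among the 3 comparisons with WT-CT.

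The 9 subunits of complex IV in wide use were also all below WT-CT on every other array. Their median log2 ratios were -0.36 in the cKO-CT pool, -0.71 in the WT-HFD pool and -0.59 in the cKO-HFD pool, and 1, 7 and 5 of them were lower by 1.5-fold. *Cox5a*, a matrix-side subunit, had the lowest ratios of these 9 in all 3 comparisons, with levels of 9.27, 8.64, 8.40 and 8.13. *Cox5b*, its zinc-binding neighbour, was at 10.85, 10.49, 10.19 and 10.26. *Cox4i1*, the form of subunit 4 in most tissues, was at 9.74, 9.48, 9.02 and 9.19. In these 3 genes, too, WT-CT was highest and cKO-CT next.

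*Cox7b* was at 11.65, 11.26, 10.94 and 10.96 in WT and cKO on CT and then in WT and cKO on HFD. *Cox6c* was at 12.52, 12.31, 11.94 and 12.00. *Cox6b1*, which helps join the monomers of the complex IV dimer, was at 11.05, 10.85, 10.91 and 10.62, and unlike the other 8 genes of this group it was higher on WT-HFD than on cKO-CT. On HFD, 7 of the 9 were higher in cKO than in WT, by at most 0.30 (*Cox8a*), with *Cox5a* (-0.27) and *Cox6b1* (-0.29) lower.

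The other restricted isoforms of complex IV showed no difference of 1.5-fold. *Cox4i2*, the form of subunit 4 known from lung, was at 6.64, 6.65, 6.67 and 6.90, lowest on WT-CT. *Cox6b2*, *Cox7b2* and *Cox8c* lay near or below the *Olfr* level, so their ratios carry little information. *Cox7a2l*, which helps join complex III and complex IV into supercomplexes, was at 7.23, 7.05, 7.10 and 6.86.

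ATP synthase had smaller median differences, and they were uneven among its genes. Over its 17 genes the median log2 ratios to WT-CT were -0.17 in the cKO-CT pool, -0.39 in the WT-HFD pool and -0.45 in the cKO-HFD pool, with 0, 4 and 5 genes lower by 1.5-fold. In the F1 part, which makes ATP, *Atp5b*, the catalytic beta subunit, was at 12.62, 12.48, 12.23 and 12.30. *Atp5a1*, the alpha subunit, was at 10.92, 10.60, 10.31 and 10.16 and passed 1.5-fold on both HFD arrays. *Atp5c1*, the gamma subunit of the central shaft, was at 10.17, 10.02, 9.87 and 9.56. The delta subunit gene *Atp5d* and the epsilon subunit gene *Atp5e* stayed within 1.5-fold in every comparison.

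In the stalk and the membrane part, *Atp5o*, which ties the stalk to F1, was at 9.80, 9.31, 9.07 and 9.26. *Atp5j2* was at 10.80, 10.34, 10.21 and 10.10, and *Atp5k*, a subunit of the dimer interface, at 7.81, 7.67, 7.13 and 7.21. Both were lower than on WT-CT by 1.5-fold on the 2 HFD arrays. *Atp5l*, also of the dimer interface and measured by 6 probe sets, was at 8.87, 8.50, 8.41 and 8.22. *Atp5h* was at 9.34, 9.03, 8.77 and 8.87, and *Atp5md* at 9.94, 9.64, 9.42 and 9.38. The remaining members, *Atp5j*, *Atp5mpl*, *Atp5pb* and *Atp5g2*, had log2 ratios to WT-CT between -0.45 and 0.07.

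The c ring gave an exception. Mice have 3 genes for the same mature c subunit, *Atp5g1*, *Atp5g2* and *Atp5g3*. *Atp5g1* was at 10.15 in WT and 10.13 in cKO on CT, and 10.84 in WT and 10.14 in cKO on HFD, so WT-HFD stood above the other arrays, whose levels nearly coincided. *Atp5g3* was at 10.08, 10.09, 10.18 and 10.30, and was the only subunit in wide use above WT-CT on all 3 other arrays. *Atp5g2* was at 10.38, 10.22, 10.21 and 9.96. WT-HFD was also the array with the highest fast skeletal muscle genes, whose values are given below, and their part in the *Atp5g1* result was not tested.

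**Figure D3:**
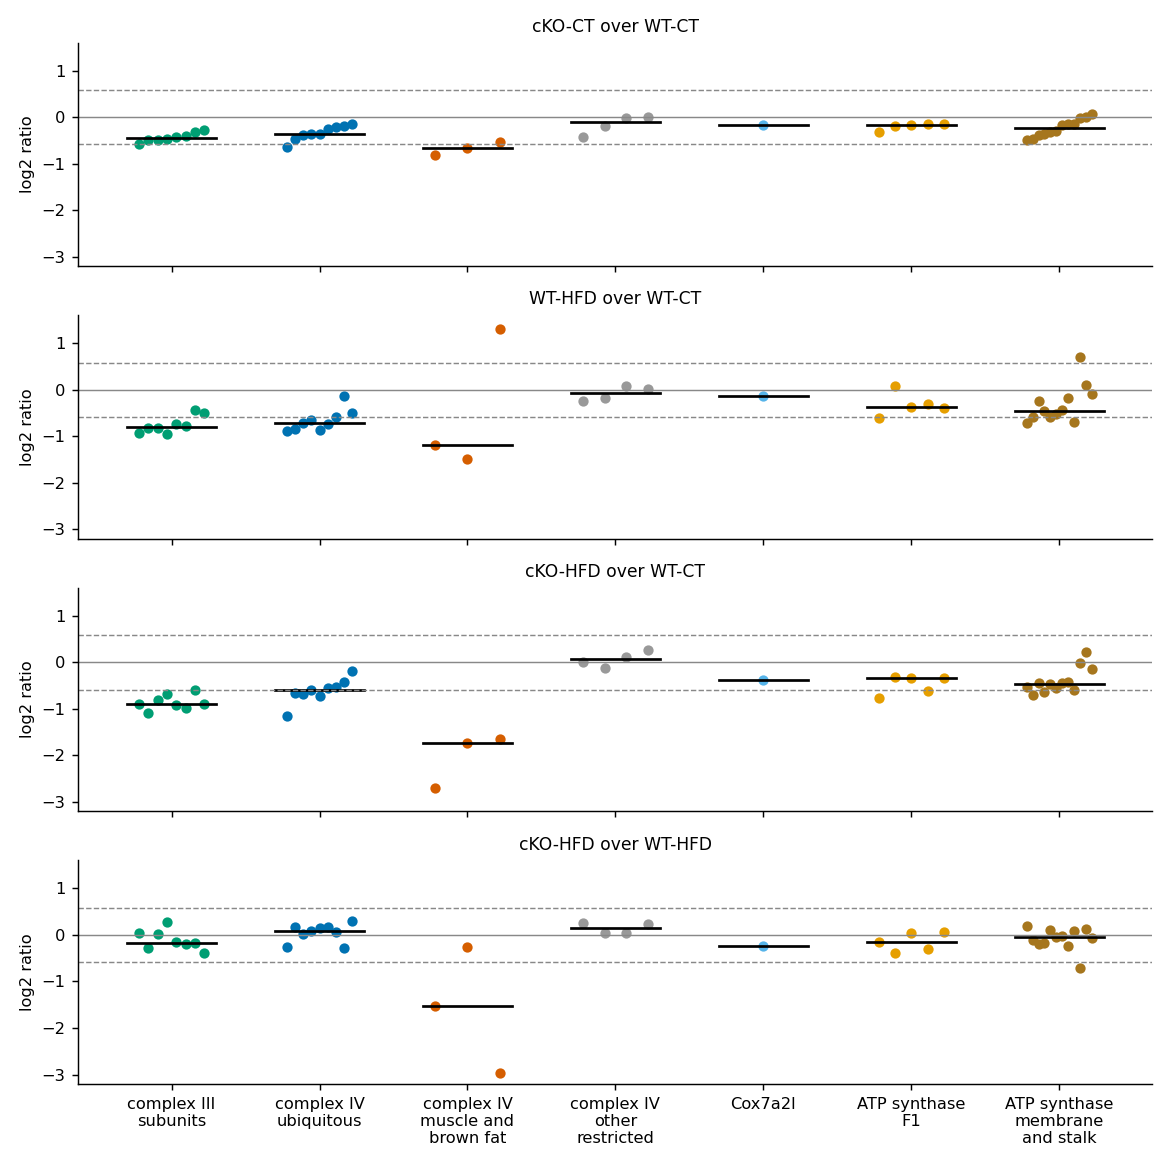
Log2 ratios (vertical axis) in 4 comparisons, 1 panel each, with 1 point per gene grouped by role. Black bars are group medians, dashed lines mark 1.5-fold. All complex III and ubiquitous complex IV genes lie below 0 in the 3 comparisons with WT-CT. The muscle and brown fat isoforms spread from -2.96 to 1.31, both ends being *Cox6a2*, a form of heart and skeletal muscle.

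Compared with their ubiquitous counterparts, the muscle and brown fat isoforms varied over a wider range. This group includes *Cox6a2*, a form of heart and skeletal muscle. *Cox7a1* had log2 levels of 10.96 in WT and 10.15 in cKO on CT, and 9.78 in WT and 8.26 in cKO on HFD. Its counterpart *Cox7a2* was at 10.00, 9.53, 9.17 and 9.34. Both were highest on WT-CT, but only *Cox7a1* was much lower on cKO-HFD than on WT-HFD. The log2 ratio of *Cox7a1* minus that of *Cox7a2* was -0.35 on cKO-CT and -0.35 on WT-HFD, each over WT-CT. On cKO-HFD it was -2.05, so that *Cox7a1* relative to *Cox7a2* was 0.241 times its value on WT-CT.

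*Cox8b* was at 12.29 in WT and 11.64 in cKO on CT, and 10.81 in WT and 10.56 in cKO on HFD. *Cox8a* was at 11.05, 10.89, 10.55 and 10.85. *Cox8b* was lower on each array in this order, whereas *Cox8a* on cKO-HFD was close to its level on cKO-CT. The log2 ratio of *Cox8b* minus that of *Cox8a*, over WT-CT, was -0.50 in the cKO-CT pool, -0.98 in the WT-HFD pool and -1.54 in the cKO-HFD pool. Between the genotypes on HFD the same quantity was -0.56, made up of -0.25 for *Cox8b* and 0.30 for *Cox8a*.

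*Cox6a2* had another order, with 8.18 in WT and 7.66 in cKO on CT, and 9.49 in WT and 6.53 in cKO on HFD. *Cox6a1* was at 10.76, 10.41, 9.90 and 10.05. *Cox6a2* was therefore highest on WT-HFD, where *Cox6a1* was lowest. The log2 ratio of *Cox6a2* minus that of *Cox6a1*, over WT-CT, was -0.17 in the cKO-CT pool, 2.17 in the WT-HFD pool and -0.94 in the cKO-HFD pool. For cKO-HFD over WT-HFD it was -3.10. Across the pairs the largest shift of such a difference under cyclic loess was 0.016.

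Marker genes of brown fat and of muscle followed these isoforms in some comparisons and not in others. Of 14 brown and beige adipocyte markers measured, 9, 10 and 9 were lower in the comparisons of cKO-CT, WT-HFD and then cKO-HFD with WT-CT, with median log2 ratios of -0.79, -1.70 and -2.35. Not all listed markers were lower: *Prdm16* (0.37, 0.07 and 0.28), *Tmem26* (-0.01, 0.07 and 0.08) and *Tbx1* (-0.10, -0.05 and -0.20) stayed within 1.5-fold. *Dio2* did too (0.01, -0.06 and 0.06), but it was above the *Olfr* level on no array. *Ucp1*, the uncoupling protein, was at 11.52 in WT and 9.96 in cKO on CT, and 7.10 in WT and 6.74 in cKO on HFD. The order of arrays was that of *Cox8b* and *Cox7a1*. Between the genotypes on HFD the median of this list was 0.01, with *Fabp3* lower (-1.70). *Elovl3* was higher by 1.5-fold, but at levels of 4.04 on WT-HFD and 4.97 on cKO-HFD, both below the *Olfr* level. In the same comparison all 20 fast skeletal muscle genes described below were lower by 1.5-fold, with a median of -4.05. Their part in the *Fabp3* value was not tested.

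Fast skeletal muscle genes, 20 in the list and all measured, had median log2 ratios over WT-CT of -0.06 in the cKO-CT pool, 1.78 in the WT-HFD pool and -2.31 in the cKO-HFD pool. On cKO-CT 2 were lower (*Myh1* and *Myh2*) and 1 higher (*Mylk4*), and 12 of the 20 were below 0. On WT-HFD 18 were higher and none lower, and on cKO-HFD all 20 were lower. Their median level was 9.36 in WT and 9.36 in cKO on CT, and 11.29 in WT and 7.14 in cKO on HFD. *Myh4*, the fastest myosin heavy chain, was at 10.40, 10.64, 12.20 and 7.73, *Acta1*, skeletal muscle actin, at 11.17, 11.50, 12.85 and 9.55, and *Ckm*, muscle creatine kinase, at 11.05, 11.29, 12.78 and 8.62. These 3 genes had their lowest value on cKO-HFD and their highest on WT-HFD, as had *Cox6a2*. They were slightly higher on cKO-CT than on WT-CT, where *Cox6a2* was lower, as was *Myh1* (-1.10). Of 10 slow muscle and heart genes, 4, 1 and 4 were lower in the 3 comparisons with WT-CT and none higher, with medians of -0.41, 0.01 and -0.26. Much of this list lay near the *Olfr* level, with median levels of 5.74, 5.34, 5.83 and 5.67, and 8, 6, 7 and 6 genes above it. Among the genes called lower, *Myoz2* was above it on no array and *Myl2* on 1 array, so these counts carry little information. *Cox7a1*, used in both muscle and brown fat, was lower with *Ucp1* on cKO-CT and WT-HFD and lowest where both *Ucp1* and the fast muscle genes were lowest. The part of muscle or brown fat RNA in these ratios was not tested, and in whole tissue fewer cells of a type and less RNA per cell cannot be told apart.

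**Figure D4:**
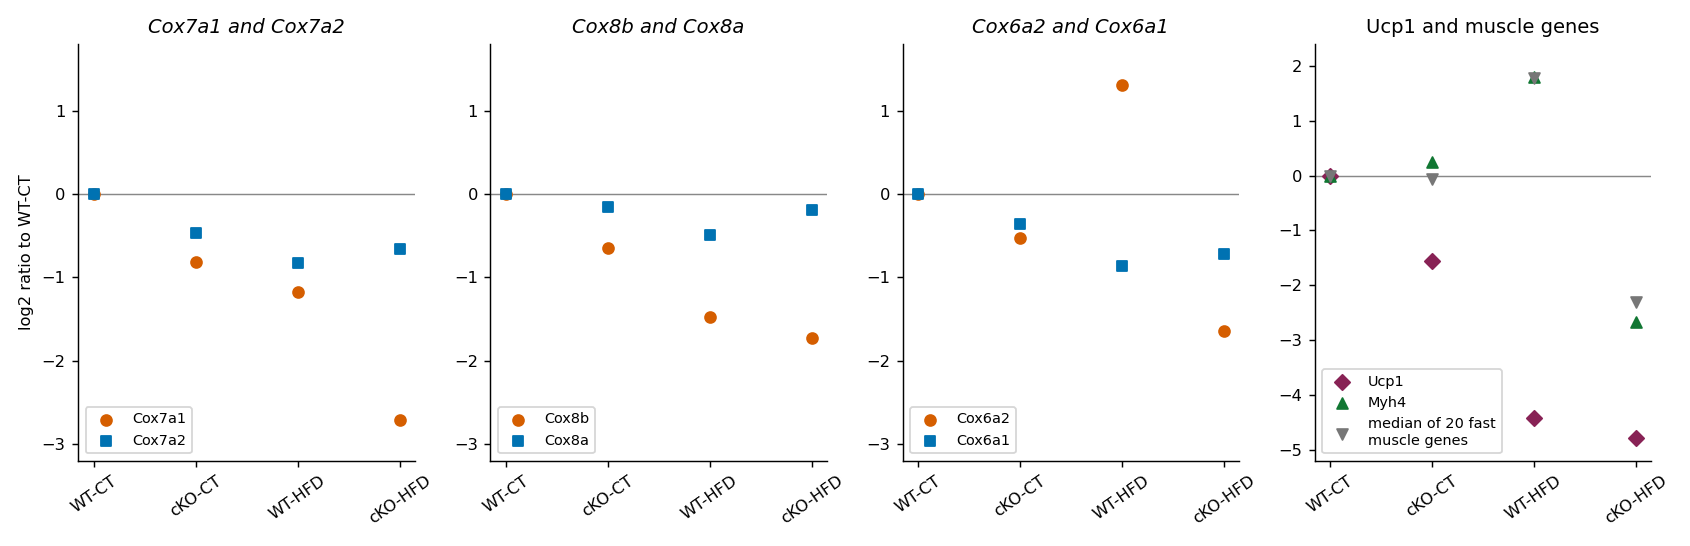
Log2 ratio to WT-CT (vertical axis) on each array for the 3 isoform pairs, with the muscle and brown fat form in orange circles and the ubiquitous form in blue squares, and in the last panel, on its own scale, *Ucp1*, *Myh4* and the median of the 20 fast muscle genes. *Cox6a2* is at 1.31 on WT-HFD and -1.65 on cKO-HFD, where the fast muscle median is at 1.78 and -2.31.

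Other cell types also differed between the arrays. White adipocyte markers had medians near 0 in each comparison with WT-CT (0.09, -0.05 and 0.01), and only *Lep*, the leptin gene, was past 1.5-fold, higher on all 3. Macrophage markers, 13 measured, had medians of 0.56, 0.79 and 0.31, with 6, 9 and 3 higher. After cyclic loess 2, 9 and 2 were higher. Pancreatic acinar markers were lower than on WT-CT on all 3 arrays, 8 of 9 by 1.5-fold each time, with medians of -1.79, -1.56 and -1.52, and all 9 were above the *Olfr* level on WT-CT. The erythroid gene *Alas2* was within 1.5-fold in these comparisons. The part of these cells in the results for the 42 genes was not tested.

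The diet effect could be set side by side in WT and cKO mice without a shared array. Of the 42 genes, 34 were lower on HFD in both genotypes, against 24.8% of all genes. Of the 37 well expressed members 33 were, against 34.5% of the 5362 well expressed genes. Over all 42 genes the 2 diet ratios correlated with r = 0.31, against 0.11 across all genes measured. Genes are not independent replicates, so this is a description. The genotype effect was below 0 on both diets for 21 of 42 genes, against 21.4% of all genes. For the well expressed it was so for 21 of 37 members, against 14.9% of the 5362 genes. On CT alone 39 of the 42 were below 0, and on HFD alone 22. For the 37 well expressed members these counts were 35 and 22. With nearly all members below 0 on CT, the counts for both diets had to be close to those on HFD. They do not show that the genotype effect recurred on HFD. Over the 42 genes the 2 genotype ratios also correlated with r = 0.31 (all genes measured, -0.01). With the restricted isoforms and *Cox7a2l* left out, r across the 34 subunits in wide use was 0.54 for diet and -0.14 for genotype, so both values depend on the genes chosen.

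**Figure D5:**
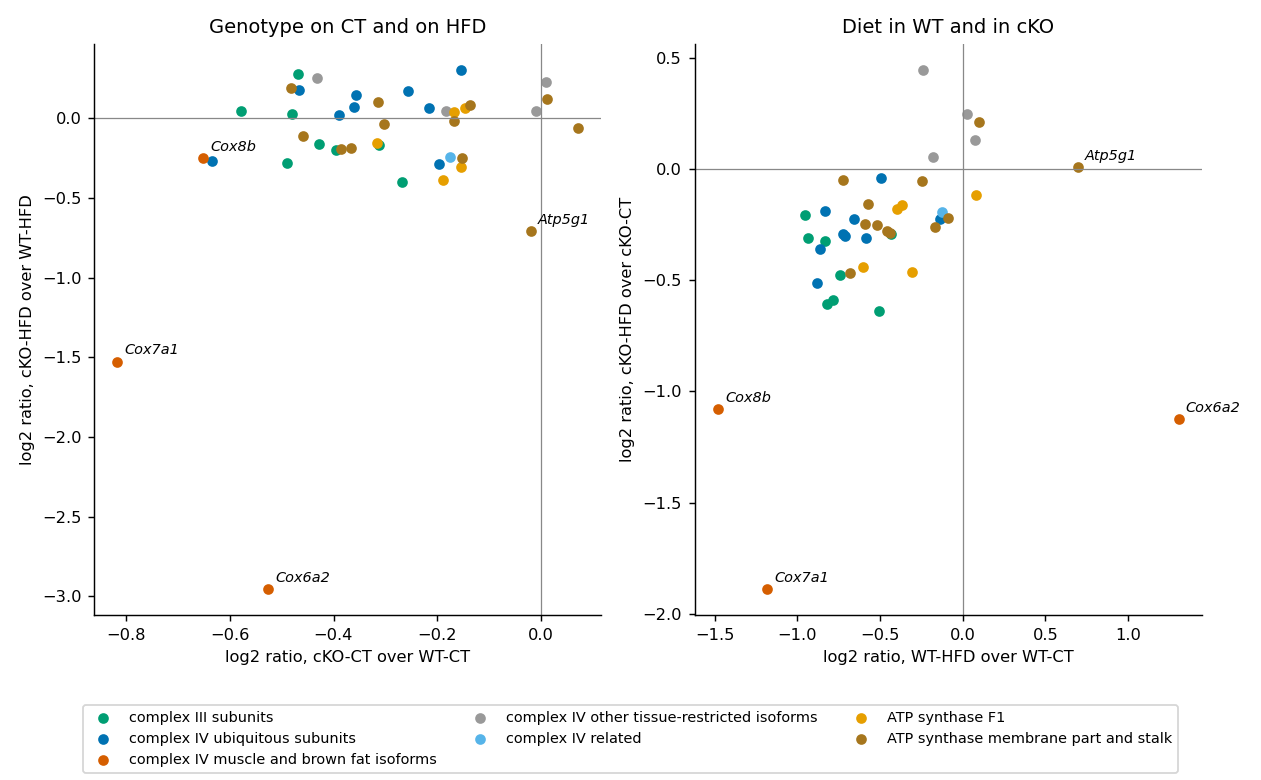
Log2 ratios of each of the 42 genes, coloured by role, in pairs of comparisons that share no array. Left, the genotype effect on CT (horizontal) and on HFD (vertical); right, the diet effect in WT (horizontal) and in cKO (vertical). On the right 34 genes lie below 0 on both axes, and on the left 21 do.

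The full order WT-CT above cKO-CT above both HFD arrays was held by 30 of 42 members, against 11.0% of all genes, and by 29 of the 37 well expressed members against 16.8% of the 5362 genes. The members outside it included *Cox6a2*, *Cox6b1*, *Atp5g1*, *Atp5g3* and *Cox4i2*.

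The partners and assembly factors of these complexes were mostly, but not all, below WT-CT. Cytochrome c1, *Cyc1*, the catalytic subunit of complex III next to the Rieske protein, was at 10.48, 10.15, 9.88 and 9.84 in WT and cKO on CT and then in WT and cKO on HFD. Among the 8 further complex III genes measured, 1, 3 and 3 were lower in the 3 comparisons with WT-CT and none higher. *Lyrm7*, which delivers the Rieske protein, was the 1 on cKO-CT (-0.82), although it was above the *Olfr* level on 1 array only. Of 18 further complex IV genes, 0, 4 and 4 were lower, among them *Coa5*, an assembly factor (-0.97 and then -1.02 on the HFD arrays), and *Ndufa4*, a subunit of complex IV despite its name (-0.59 and -0.69). After cyclic loess these complex IV counts were 1, 4 and 6. *Higd2a*, an assembly factor of complex IV, was above WT-CT on all 3 arrays (0.16, 0.07 and 0.42).

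Of 5 further ATP synthase genes 0, 1 and 1 were lower, the single genes being *Tmem70* and *Fmc1*, both assembly factors. *Atpif1*, the inhibitor that blocks ATP hydrolysis by the enzyme, went the other way, with 9.01 in WT and 9.36 in cKO on CT, and 9.23 in WT and 9.42 in cKO on HFD. It was above WT-CT on every other array, always by less than 1.5-fold.

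Listed subunits of complexes I and II were lower as well. The complex I list was a selection and did not cover every subunit. Its 19 measured genes were all below WT-CT on every other array. Their median log2 ratios were -0.36, -0.61 and -0.76, with 1, 10 and 14 lower by 1.5-fold (2, 10 and 14 after cyclic loess). The 4 complex II subunits had medians of -0.35, -0.81 and -0.85, with 0, 3 and 3 lower. *Sdha*, the flavoprotein of complex II, was at 10.97, 10.44, 9.93 and 9.80. For cKO-HFD over WT-HFD none of these complex I and II genes passed 1.5-fold. *Ndufs4* was at the threshold (-0.58), and 1 complex I gene was past it after cyclic loess. General mitochondrial genes (9 measured, such as the porin *Vdac1* and citrate synthase *Cs*) had medians of -0.18, -0.48 and -0.59, with 0, 3 and 5 lower. Lower values were thus also found outside the 42 genes.

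Regulators of mitochondrial genes gave mixed values. Of 14 measured, 2, 5 and 4 were lower in the 3 comparisons with WT-CT and none higher. *Ppargc1a*, the coactivator PGC-1α, was at 7.02, 6.48, 6.03 and 5.93, and its relative *Ppargc1b* at 7.78, 7.12, 6.40 and 6.49. *Esrra*, the oestrogen-related receptor alpha with which they work, was at 7.48, 7.05, 6.96 and 7.07 and within 1.5-fold throughout. *Nrf1*, nuclear respiratory factor 1, was above WT-CT on each other array, by 0.41, 0.23 and 0.35, and *Gabpa* and *Yy1* differed by at most 0.12. *Ppara*, a fatty acid receptor of brown fat, had the lowest ratios of this list, with -0.91, -1.95 and -2.19.

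Where a member had several probe sets (12 members), their ratios differed little. Their levels could differ more, as for *Cox7b*, with 12.61 and 10.69 on WT-CT. The widest range of log2 ratios within a gene was 0.24 in these comparisons, for *Atp5pb*, and the median range was between 0.049 and 0.074. Probe sets fell on both sides of 1.5-fold for *Atp5h* and *Cox6c* on WT-HFD and for *Atp5l*, *Cox5b* and *Uqcr11* on cKO-HFD, both over WT-CT. The probe sets shared by *Cox7c* and *Gm12338* were at 11.99 to 12.30 in WT and 11.89 to 12.18 in cKO on CT, and at 11.65 to 11.96 in WT and 11.71 to 12.03 in cKO on HFD, so they too were highest on WT-CT.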

How the data were processed

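RNA of subcutaneous adipose tissue was measured on 4 Affymetrix MoGene 1.0 ST arrays, 1 per group, so the number of arrays limits the precision. Each deposited value is the log2 level of a probe set, which the authors obtained by RMA (background correction, quantile normalization and probe summary); the methods name RMA-Sketch of the APT tools and the submitters' processing notes Affymetrix Expression Console. No detection filter was applied, since detection P values were not used here. Quantile normalization sets all arrays to one distribution, so only changes relative to other genes are seen. Array medians over probe sets were 5.55 to 5.60, and r between arrays over all genes was 0.980 to 0.989.

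Gene names came from the annotation of the platform and may be outdated. Of 35556 probe sets, 21789 had 1 name, 1621 several and 12146 none, and only those with 1 name were used. A gene's level was the mean of its probe sets, and 62 probe sets belonged to the 42 members. Groups came from the sample titles. Log2 ratios were taken for 5 comparisons and called at 1.5-fold, the size the study used to list genes. Shares called are given for all genes and for those whose log2 level averaged 7 or more. Each list is described by its counts and median.

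The members, their roles and the 14 gene lists (153 of 173 symbols measured) were chosen with earlier results of these data known. The text names members called at 1.5-fold, the isoform pairs, members nearest the threshold, up to 4 genes of each list by size, genes needed to describe counts of 5 or fewer, and *Ucp1*, *Ppargc1a*, *Esrra*, *Acta1*, *Myh4*, *Ckm* and *Napepld*. Members and regulators outside this rule, and *Cyc1*, *Ndufa4*, *Sdha*, *Vdac1*, *Cs*, *Higd2a*, *Ndufs4* and *Atpif1*, were named for their role after their values were seen. *Prdm16*, *Tmem26*, *Tbx1* and *Dio2* were likewise named after their values were seen, as listed markers that were not lower by 1.5-fold.

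Alternatives were the brightest probe set of a gene, single probe sets, cyclic loess (span 0.7, 3 iterations), centring by the all-gene median, a 2-fold size, well expressed genes alone, genes past the *Olfr* level on 1 array or more and the set without restricted isoforms. cKO-HFD over cKO-CT was added after the data were seen. Promoter windows came from RefSeq. The 1.5-fold call was tried on simulated arrays with known changes and an assumed noise, as the series has no replicates. The other steps were not tried in this way. The software was R 4.3.3, limma 3.58.1, Python 3.11.15, pandas 2.3.3, numpy 2.4.6 and matplotlib 3.10.9.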

Additional observations from a re-analysis of the deposited data

Results flagged for a closer look

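*Cox6a2*, the muscle form of subunit 6a, differed between HFD and CT in opposite directions in the 2 genotypes. The log2 ratio of HFD over CT was 1.31 in WT mice and -1.12 in cKO mice, a difference of 2.43. With 1 array per group this difference was not tested. The median of the 20 fast skeletal muscle genes was 1.78 in the first comparison and -2.32 in the second, and their part in the *Cox6a2* result was not tested.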

How the results depend on the processing

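Of 115 values recomputed under the alternatives for 25 results, 8 moved and none changed direction. A count was said to move if it changed by more than 1.5 times, and a log2 value if it changed by 0.1 or more. Some of the 115 could not move. Centring shifts a whole array by the same amount, so the differences within isoform pairs stay the same. Choosing the brightest probe set leaves them unchanged too, since each pair gene has 1 probe set. At 2-fold in place of 1.5-fold, the members lower than on WT-CT numbered 0 for cKO-CT, 2 for WT-HFD and 5 for cKO-HFD, and 3 were lower on cKO-HFD than on cKO-CT. After cyclic loess 5 members were lower on cKO-CT in place of 3, and 4 in place of 6 in the diet comparison of cKO mice. Without the restricted isoforms, which leaves 35 members, 1 was lower on cKO-CT than on WT-CT, 1 on cKO-HFD than on WT-HFD and 3 on cKO-HFD than on cKO-CT. The lower counts of that last alternative follow from its smaller set, in which *Cox7a1*, *Cox8b* and *Cox6a2* are absent. Centring and cyclic loess shifted the median of the members by at most 0.079 and the median of all genes by at most 0.030. No paired analysis was possible because each group has 1 array. No replicate could be left out for the same reason, and a difference between 2 pools cannot be set against the spread between mice.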
